A study of Oryza sativa with 2 samples.

Results

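The Aux/IAA and auxin response factor (ARF) genes of rice were followed in leaves of seedlings that carried an OsEATB transgene and of nontransgenic seedlings. Members were the genes of the rice gene table with a name from IAA1 to IAA31 or from ARF1 to ARF25, which gave 51 genes, 28 Aux/IAA and 23 ARF, among 17905 genes with a probe set on the array. The first group was OsEATB transgenic rice of the indica cultivar 9311, and the second was nontransgenic 9311. Both grew in a diluted Murashige-Skoog medium at 28 °C, with 14 h of light and 10 h of darkness, and leaf RNA of 10 seedlings at the 4-leaf stage was hybridised to 1 array for each group. OsEATB is a rice transcription factor of the ERF family. The sources used here give neither the promoter of the transgene nor the number of transgenic lines, and no probe set was tied to OsEATB, so the labels stand without a check from the introduced gene.

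Auxin is perceived by F-box receptors of the TIR1 and AFB type. Aux/IAA proteins are short-lived nuclear repressors that bind ARF proteins and recruit co-repressors of the TOPLESS type, and auxin brings about their degradation through the receptors. ARF proteins bind auxin response elements in promoters and activate or repress the genes behind them. Many Aux/IAA genes are themselves induced by auxin within a short time, so their transcripts are widely used as a readout of auxin response. In grasses the families act in root formation, tillering, leaf angle and grain size.

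With 1 array per group, differences have no replicate check, and no p-value or standard error exists. Values are MAS5 signals on a log2 scale, and a difference or log2 ratio is the transgenic minus the nontransgenic log2 signal. Signals below the 40th percentile of an array (log2 4.61 on the transgenic and 4.41 on the nontransgenic array) were raised to that floor, and a ratio with 1 side at the floor is a lower bound. A gene passed the level filter when its brightest probe set reached the median of its array, log2 5.32 in transgenic or 5.16 in nontransgenic leaves, on at least 1 array. Brightness depends on the probes as well as on the transcript, so that levels are compared between arrays and not between genes.

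Some members carry more than 1 number in the gene table, because the families were numbered more than once. Of the 51 genes, 8 had several numbers of their own family. Each was given the number that keeps the series rising along the gene order of the reference, which placed every member once. LOC4327919 lies between IAA3 and IAA5 in that order and is called IAA4 here, although IAA20 is also listed for it. LOC4340245 is listed as IAA20 alone. LOC4334069 is called IAA13 (also listed as IAA1), LOC4325515 is called IAA5 (also IAA8), and LOC4327785 is called ARF1 (also ARF16). LOC4326957 is called ARF4 (also ARF2), LOC4337363 is called ARF12 (also ARF8), LOC4341882 is called ARF18 (also ARF10) and LOC4350610 is called ARF23 (also ARF1).

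Of the 28 Aux/IAA genes, 26 had a probe set of their own and 22 passed the level filter. Of the 23 ARF genes, 17 had a probe set and 17 passed. IAA11, IAA29, ARF5, ARF6, ARF8, ARF19, ARF21 and ARF25 had no probe set tied to them alone and are not analysed here. IAA14, IAA16, IAA20 and IAA26 stayed below the filter. IAA14 had log2 signals of 4.60 and 1.33 in transgenic and nontransgenic leaves, and IAA16 had 0.32 and 4.66. IAA20 (LOC4340245) had 5.20 and 5.04, and IAA26, whose product acts in the ethylene response of rice roots, had 0.56 and 3.29. These 4 genes were dim on both arrays, and no ratio is drawn from them.

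**Figure D1:**
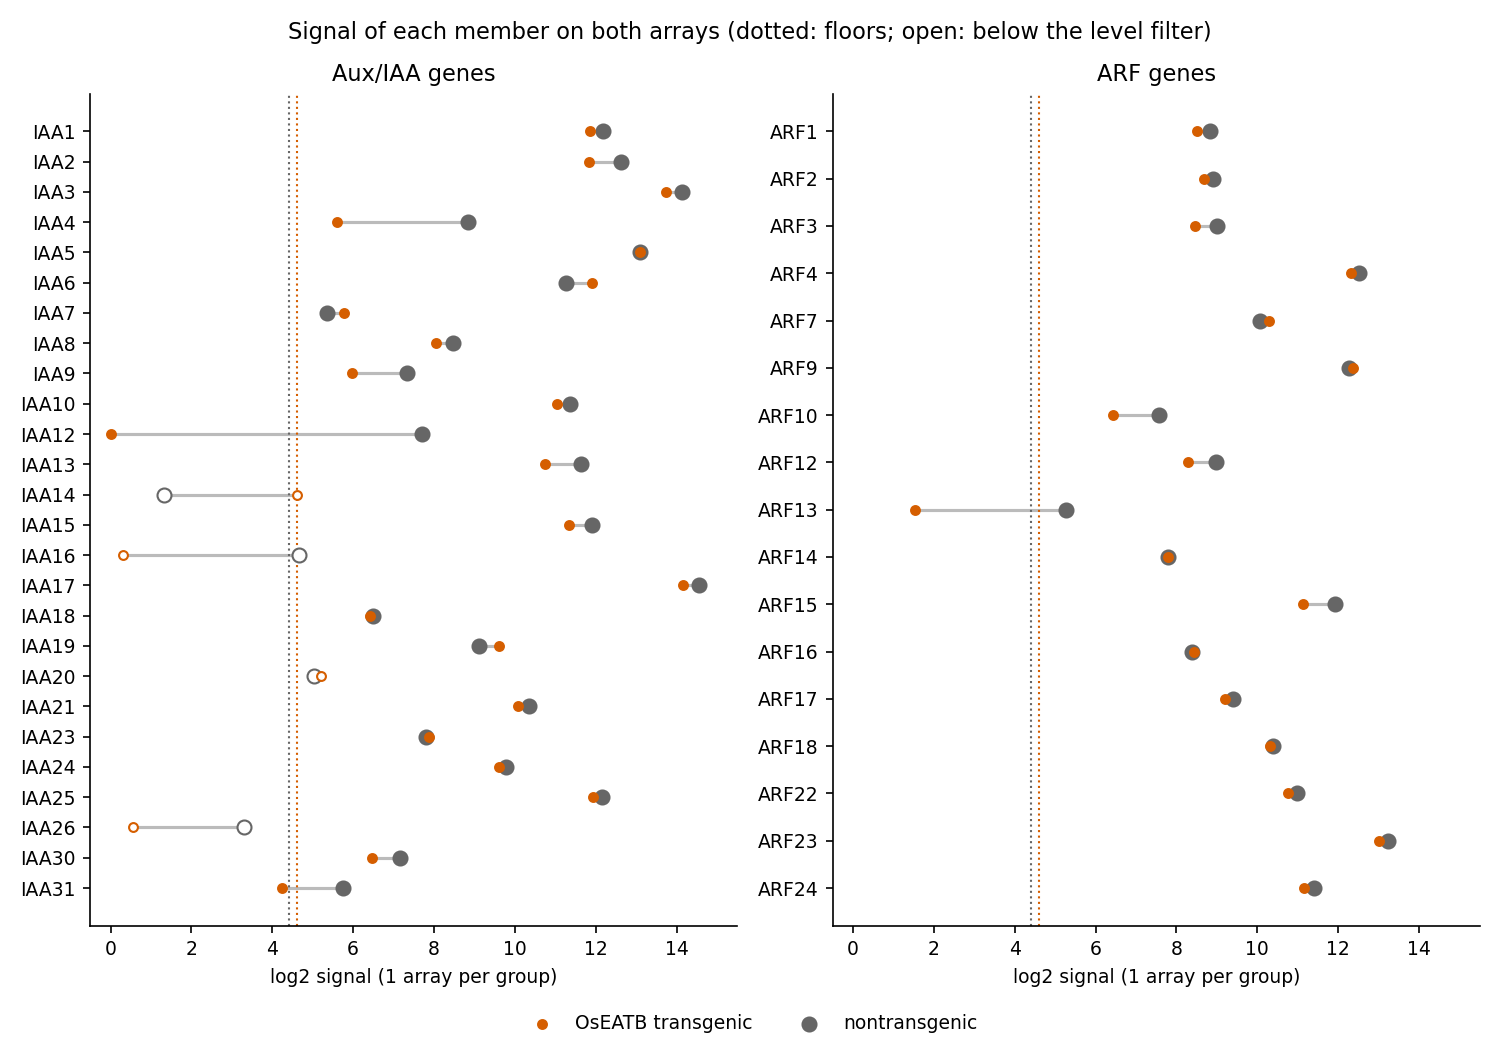
Log2 signal of each Aux/IAA gene (left panel) and each ARF gene (right panel) with a probe set, in OsEATB transgenic leaves (small orange points) and nontransgenic leaves (large grey points), 1 array each. Dotted lines mark the floors of the 2 arrays and open points mark the 4 genes below the level filter. The widest gaps among filled points belong to IAA4, IAA12 and ARF13, all with the transgenic value on the left.

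Both families leaned towards lower signal in the transgenic leaves. Of 22 Aux/IAA genes that passed, 4 were at least 2-fold lower and 0 at least 2-fold higher. Among all 15192 genes that passed, 4.43% were at least 2-fold lower and 6.04% at least 2-fold higher (41.2% and 1.27% with the arrays scaled on hybridisation controls). Of 17 ARF genes, 1 was at least 2-fold lower and 0 were higher. A ratio below 0 was found for 17 Aux/IAA genes (77.3%) and for 13 ARF genes (76.5%), against 51.4% of all genes. The median log2 ratio was -0.36 for Aux/IAA genes and -0.21 for ARF genes, against -0.01 for all genes. IAA12 and IAA31, and among the ARF genes ARF13, reached the filter on the nontransgenic array alone, which left almost no room for a ratio above 0. Among the 20 Aux/IAA and 16 ARF genes that reached it on both arrays, 2 and 1 were at least 2-fold lower, at medians of -0.31 and -0.21. Of all genes that reached it on both arrays, 2.85% were at least 2-fold lower and 3.24% at least 2-fold higher. A filter on the mean of both arrays, chosen after seeing the data, left the same number of members and of 2-fold lower members, beside 3.69% lower and 4.09% higher among all genes.

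IAA4 had the largest ratio among members measured above the floor on both arrays. Its log2 signal was 5.61 in transgenic leaves and 8.84 in nontransgenic leaves, or 48.8 and 459 as linear signals, which is 9.40-fold lower. In rice plants that overproduce it, IAA4 causes dwarfing and a weaker response to auxin. A second probe set of IAA4, which may hybridise to several transcripts, stood at 5.70 in transgenic and 8.57 in nontransgenic leaves. Another lay below the floor in transgenic leaves and at 7.50 in nontransgenic leaves. All 3 probe sets gave a lower transgenic signal, with log2 ratios of -3.23, -2.87 and -2.88 after the floor. The last is a bound, and its probe set reached the filter on the nontransgenic array alone, which fixed its sign. Among genes of the same range of mean signal, 0.342% had a ratio as low as that of IAA4.

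IAA12 (LOC4333512) was near the bottom of the scale on 1 array only. Its single probe set had a log2 signal of 0.02 in transgenic leaves and 7.69 in nontransgenic leaves. Measured against the floor, IAA12 was at least 8.46-fold lower, a bound that cannot be ranked against IAA4. The IAA12 protein works with ARF17 in setting the angle of the rice leaf blade. ARF17 itself stood at 9.21 in transgenic and 9.39 in nontransgenic leaves, a log2 ratio of -0.18.

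IAA9 and IAA31 were the other Aux/IAA genes past 2-fold, both from dim signals. IAA9 (LOC4331061) had log2 signals of 5.98 in transgenic and 7.32 in nontransgenic leaves, 2.53-fold lower. IAA31 (LOC4352722) had 4.24 and 5.75 and was at least 2.21-fold lower. With the floor raised to the median the log2 ratio of IAA31 was -0.44, below 2-fold. A further probe set of IAA31 gave 4.40 in transgenic and 5.30 in nontransgenic leaves, a log2 ratio of -0.69 after the floor. The gene next to IAA31 in the reference, IAA30, stood at 6.47 and 7.15, which is 1.61-fold lower.

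**Figure D2:**
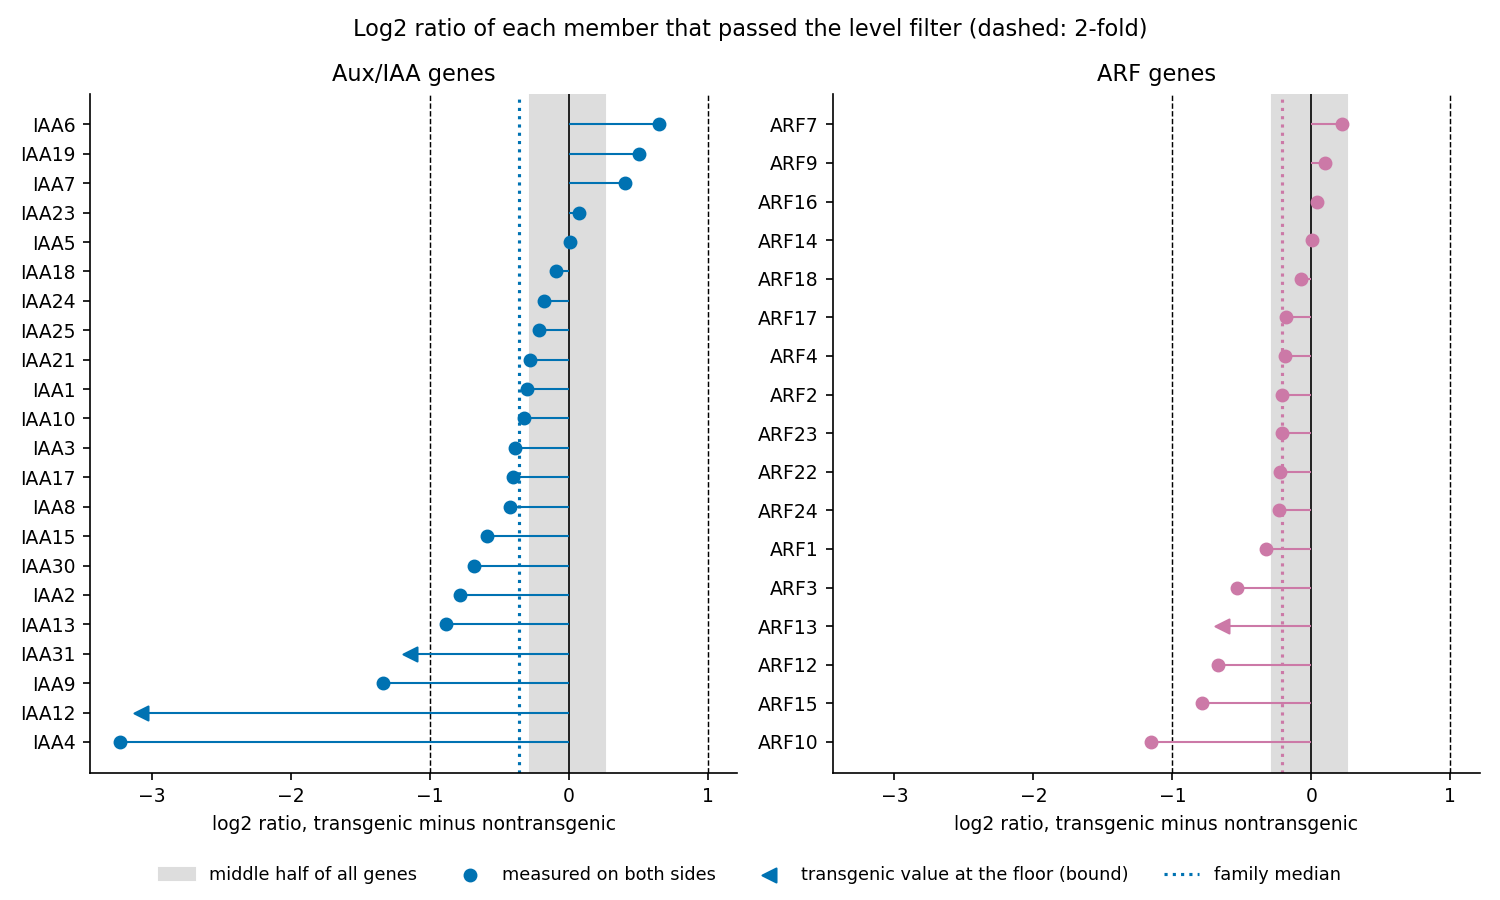
Log2 ratio (transgenic minus nontransgenic) of each Aux/IAA gene (left, blue) and each ARF gene (right, pink) that passed the level filter, in order of ratio. The grey band holds the central 50% of all genes, dashed lines mark 2-fold, dotted lines the family medians of -0.36 and -0.21, and triangles are bounds. A total of 5 members lie beyond the lower dashed line and 0 beyond the upper one.

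Most of the brighter Aux/IAA genes had smaller ratios in the same direction, with IAA5 and IAA6 above 0. IAA2 (LOC4326775) had a log2 signal of 11.84 in transgenic and 12.62 in nontransgenic leaves, 42.0% lower. IAA13, whose stabilised form reduces lateral rooting, had 10.73 and 11.62 and was 1.85-fold lower. IAA15 (LOC4337971) had 11.33 and 11.92 and was 33.4% lower. Such ratios were uncommon among bright genes. Of the genes in the brightest of 4 equal groups by mean signal, 1.0% had a ratio as low as that of IAA2 and 2.71% one as low as that of IAA15. In the next group, 2.24% had one as low as that of IAA13.

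The brightest members of the family differed by less. IAA17 stood at 14.15 in transgenic and 14.56 in nontransgenic leaves, 24.5% lower, and was read by a probe set that may hybridise to several transcripts. IAA3 stood at 13.74 and 14.12, 23.6% lower. IAA5 stood at 13.09 in transgenic and 13.08 in nontransgenic leaves, a ratio near 0. IAA1 had 11.87 and 12.17, IAA25 had 11.94 and 12.15, and IAA10, whose product is bound by a protein of the rice dwarf virus, had 11.04 and 11.37. The log2 ratios of IAA1, IAA25 and IAA10 were -0.30, -0.21 and -0.32.

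IAA6 (LOC4326541) went the other way among the bright genes. It had a log2 signal of 11.90 in transgenic and 11.25 in nontransgenic leaves, 56.7% higher, and 3.21% of genes in the brightest group had a ratio as high. With the arrays scaled on the hybridisation controls, which moved the median of all genes to -0.92, the log2 ratio of IAA6 was -0.26, still above that median. IAA6 is known in rice for roles in drought response and in the outgrowth of tillers. IAA19 stood at 9.60 in transgenic and 9.10 in nontransgenic leaves and was 41.6% higher. IAA7 was dim, at 5.76 and 5.36, and IAA23, which maintains the quiescent centre of the root, stood at 7.89 and 7.81. That probe set of IAA23 may hybridise to several transcripts, and a second passing probe set gave a log2 ratio of -0.02. IAA6, IAA19, IAA7, IAA23 and IAA5 were the 5 Aux/IAA genes with a ratio above 0, and under the scaling on controls all 5 were below 0.

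The remaining Aux/IAA genes had ratios between -0.42 and -0.09. IAA8 stood at 8.04 in transgenic and 8.46 in nontransgenic leaves, IAA21 at 10.07 and 10.35, and IAA24 at 9.60 and 9.77. IAA18 was dim, at 6.40 and 6.49. For IAA8 a dimmer probe set gave the opposite direction, at 5.59 in transgenic and 2.75 in nontransgenic leaves, so that the mean over its probe sets was a log2 ratio of 0.38. That dimmer probe set reached the filter on the transgenic array alone, which fixed its sign, and its ratio is a bound. The direction of IAA8 was thus not settled by its probe sets.

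ARF genes were more alike between the arrays than Aux/IAA genes, and about as alike as all genes. Of 17 genes, 12 had a log2 ratio within 0.5 of 0, against 12 of 22 Aux/IAA genes and 10904 of all 15192 genes. The middle 50% of ARF ratios spanned 0.46 on the log2 scale, against 0.65 for Aux/IAA genes and 0.54 for all genes. In the dimmest of the 4 groups by mean signal, where ratios scatter more, lay 7 of the 22 Aux/IAA and 2 of the 17 ARF genes. The difference between the family medians, Aux/IAA minus ARF, was -0.15, and it was -0.07 when the passing probe sets of a gene were averaged. No test of it exists with 1 array per group. Among ARF genes measured above the floor on both arrays, the largest ratio was that of ARF10 (LOC4336419), at 6.42 in transgenic and 7.58 in nontransgenic leaves, 2.23-fold lower.

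ARF genes were grouped by structure and small-RNA regulation as known in rice. The 4 genes of the ETTIN type, ARF2, ARF3, ARF14 and ARF15, whose transcripts are cut by trans-acting small RNAs, had a median log2 ratio of -0.37. ARF15 (LOC9268260), listed as OsETTIN1, had log2 signals of 11.13 in transgenic and 11.91 in nontransgenic leaves, 42.0% lower, and 1.03% of the brightest genes had a ratio as low. ARF3 stood at 8.46 and 8.99, 30.8% lower. ARF2, listed as OsETTIN2, stood at 8.69 and 8.90, while its second probe set, which may hybridise to several transcripts, gave 7.93 in transgenic and 7.74 in nontransgenic leaves, with the opposite sign. ARF14 stood at 7.79 and 7.78. The ETTIN type thus held genes with a lower signal and a gene with almost the same signal on both arrays.

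The genes whose transcripts are cut by miR160 are ARF8, ARF10, ARF18 and ARF22, of which 3 were measured. Besides ARF10, ARF18 stood at 10.32 in transgenic and 10.40 in nontransgenic leaves, and ARF22 at 10.76 and 10.99. All 3 had ratios below 0, from -1.16 to -0.08. ARF10 was the only ARF past 2-fold with the floor as set. In its range of mean signal, 8.79% of genes had a ratio as low.

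ARF proteins with a glutamine-rich middle region act as activators. Of the 8 members of this kind, ARF5, ARF6, ARF12, ARF16, ARF17, ARF19, ARF21 and ARF25, only ARF12, ARF16 and ARF17 had a probe set. The activators are therefore covered in small part, and the ARF values stand mostly for the repressor types. ARF12, which acts in root elongation and phosphate balance, had log2 signals of 8.30 in transgenic and 8.97 in nontransgenic leaves, 37.3% lower, on a probe set that may hybridise to several transcripts. ARF16 stood at 8.43 and 8.39.

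The other 7 ARF genes had ratios from -0.65 to 0.22. ARF23 and ARF24, which form a pair that controls a formin gene and cell elongation, were both slightly lower. ARF23 stood at 13.01 in transgenic and 13.22 in nontransgenic leaves, 13.6% lower, and ARF24 at 11.16 and 11.39, 14.7% lower. The probe sets of ARF23 may hybridise to several transcripts. ARF4, a regulator of grain size, stood at 12.32 and 12.51, 12.5% lower. ARF1 stood at 8.51 and 8.84. ARF7 had 10.30 in transgenic and 10.08 in nontransgenic leaves, and ARF9 had 12.36 and 12.25, both above 0 except under the scaling on controls. ARF13 had 1.53 and 5.26 and was at least 1.56-fold lower. Without the floor its log2 ratio was -3.73, and with the floor at the median it was 0.06, so both its size and its direction rest on the treatment of dim signals.

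**Figure D3:**
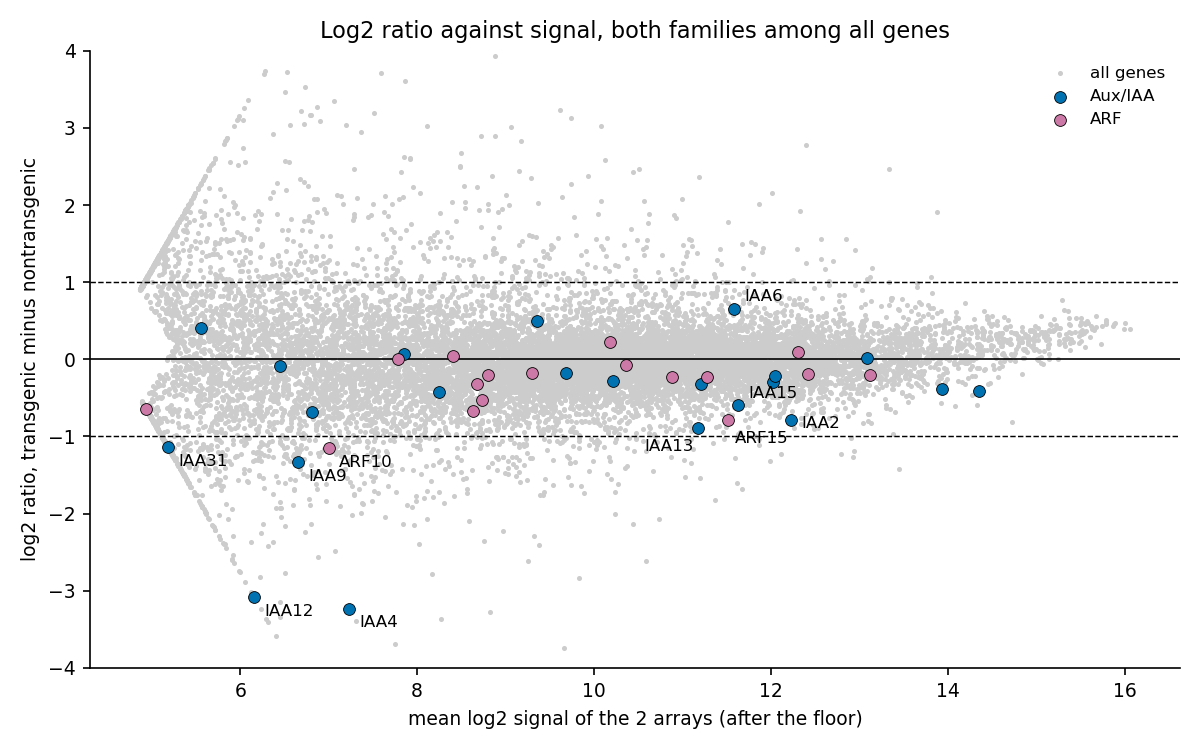
Log2 ratio against the mean log2 signal of both arrays for Aux/IAA genes (blue), ARF genes (pink) and all 15192 genes that passed the level filter (grey), of which 42 lie outside the axis limit of 4. Dashed lines mark 2-fold and members with large ratios for their signal are named. Members past 2-fold lie among the dim genes, where the grey cloud is wide, while IAA13, ARF15, IAA15 and IAA2 lie at its lower edge among bright genes.

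Ratios were read beside brightness, because dim genes scatter more. In the dimmest of the 4 groups by mean signal, 11.9% of all genes were at least 2-fold lower and 16.9% higher. These shares were 3.87% and 4.48% in the next group, 1.47% and 1.82% in the one after it, and 0.474% and 1.03% in the brightest. All 5 members past 2-fold lay in the dimmest group, which held 9 members. The mean signal of a gene that is low on 1 array is itself lowered, as for IAA4, which stood at 8.84 in nontransgenic leaves. In the brightest group, 7 of 9 Aux/IAA genes and 4 of 5 ARF genes had a ratio below 0, against 44.4% of all genes there. Their medians were -0.32 and -0.21, against 0.04 for all genes of that group. In the 2 groups between, the lean was uneven. In the second-dimmest group, 2 of 4 Aux/IAA genes were below 0, at a median of -0.05, and 5 of 7 ARF genes at -0.21, against -0.07 for all genes there. In the second-brightest group, 2 of 2 Aux/IAA genes were below 0, at -0.58, and 2 of 3 ARF genes at -0.08, against -0.04 for all genes.

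Probe sets of 1 gene served as a measure of error within the arrays, not between plants. Over 2414 genes with several passing probe sets, the SD of a log2 ratio between probe sets was 0.74 for dim, 0.54 for middle and 0.42 for bright genes, in 3 groups of equal size. Only IAA4 and IAA12, 5.13% of the 39 members that passed, had ratios over 2 times this scatter, and 0 of 17 ARF genes did. IAA12 reached the filter on the nontransgenic array alone, which fixed its sign, and its ratio is a bound. Among all genes, 5.06% exceeded 2 times the scatter. The smaller ratios of IAA2, IAA13, IAA15 and ARF15 were within it. Of the 9 members with several passing probe sets, IAA3, IAA4, IAA31, ARF4 and ARF23 had the same sign in each of them, which makes 5 of 9. Over all genes with several, the 2 brightest probe sets had the same sign in 58.5% of dim, 60.3% of middle and 61.6% of bright genes. IAA1, IAA8, IAA23 and ARF2 had both signs. The filter fixed the sign of both probe sets of IAA31, the dimmest of IAA4 and the dimmer of IAA8. Each of them reached it on 1 array only and lay below the floor on the other.

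**Figure D4:**
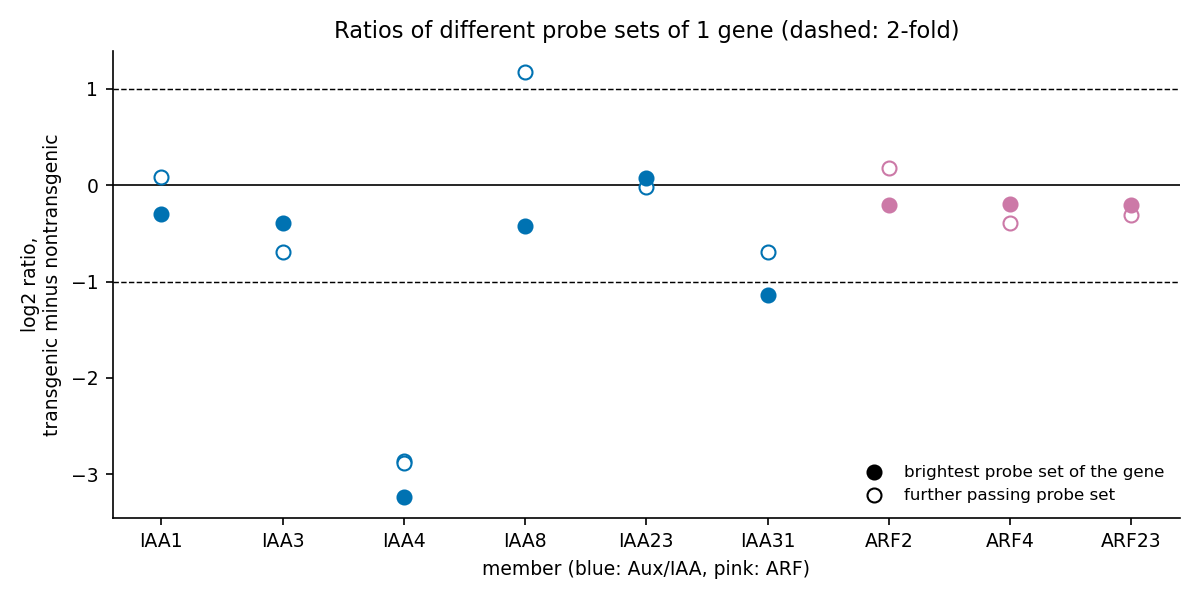
Log2 ratio (transgenic minus nontransgenic) of every passing probe set of the 9 members with more than 1, with the brightest probe set filled and the others open. The probe sets of IAA4 lie between -3.23 and -2.87, while those of IAA8 lie on opposite sides of 0, at -0.42 and 1.18. The 1.18 of IAA8 is a bound, as are the ratio of the dimmest probe set of IAA4 and both ratios of IAA31.

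The genes beside the members past 2-fold were examined in the gene order of the reference, taking the 3 nearest genes on each side that passed the filter. These lay up to 15 genes away. Around IAA4, ratios of the 6 neighbours ran from -0.96 to 0.33, and 0 were 2-fold lower. Around IAA12 they ran from -0.46 to 0.06. The gene next to IAA9 is PCNA, which encodes the sliding clamp of DNA replication, and it stood at 9.14 in transgenic and 10.14 in nontransgenic leaves, a log2 ratio of -0.99. On the other side of IAA9, LOC4331060 had -0.13, and the neighbours of IAA9 reached up to 1.47. That highest ratio is a bound, from a gene that reached the filter on the transgenic array alone, which fixed its sign. Next to IAA31 on the other side from IAA30, LOC107276775 had a log2 ratio of -1.11, while 2 further neighbours were at least 2-fold higher, up to 1.34. Around ARF10 the ratios ran from -0.56 to 1.28, and 0 of 6 neighbours were 2-fold lower. No neighbour of IAA4 or IAA12 was 2-fold lower. Among all genes that passed, 4.43% were at least 2-fold lower and 6.04% at least 2-fold higher. At such shares, counts of 0 among 6 neighbours say little.

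Other genes listed by name for the auxin pathway did not follow 1 direction. Of 24 genes in lists of co-repressors, synthesis, transport, conjugation and early response, 14 passed the filter. Of these, 2 were at least 2-fold lower and 3 at least 2-fold higher, beside 4.43% and 6.04% of all genes, and their median log2 ratio was -0.18. PIN4, PIN3A and GH3.11, which are 3 of these 5 genes, reached the filter on 1 array only, which left almost no room for the other direction. No gene of the table was matched by name to the TIR1 or AFB receptors. The co-repressor genes TPR2 (LOC4327709) and TPR3 had ratios of -0.18 and -0.20. For auxin synthesis, the aminotransferase gene FIB stood at 8.67 in transgenic and 8.85 in nontransgenic leaves, and YUCCA1 at 6.98 and 7.14. SAUR39, an early auxin-responsive gene that acts as a repressor of auxin synthesis and transport in rice, stood at 11.90 and 12.34, a log2 ratio of -0.44.

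Transport and conjugation genes held the ratios above 2-fold. The transport gene PIN4 (LOC4346116), also listed as PIN5b and PIN5c, was at least 48.4-fold higher. Its log2 signals were 10.01 in transgenic and 4.38 in nontransgenic leaves. GH3.2, whose enzyme links auxin with amino acids, stood at 8.69 and 6.58, 4.34-fold higher. PIN5A (LOC4324368) was bright, at 13.22 in transgenic and 11.92 in nontransgenic leaves, and 2.47-fold higher. PIN3A (LOC4326565) had 2.80 and 6.62 and was at least 4.02-fold lower, and GH3.11 was at least 2.30-fold lower from a dim signal. DAO, which oxidises auxin, stood at 8.87 in transgenic and 8.23 in nontransgenic leaves. GH3.6 had a log2 ratio of 0.70, GH3.5, also known as JAR1, one of -0.43, and GH3.7 one of -0.31. The GH3 genes were listed by name, and which of their enzymes act on auxin was not checked.

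**Figure D5:**
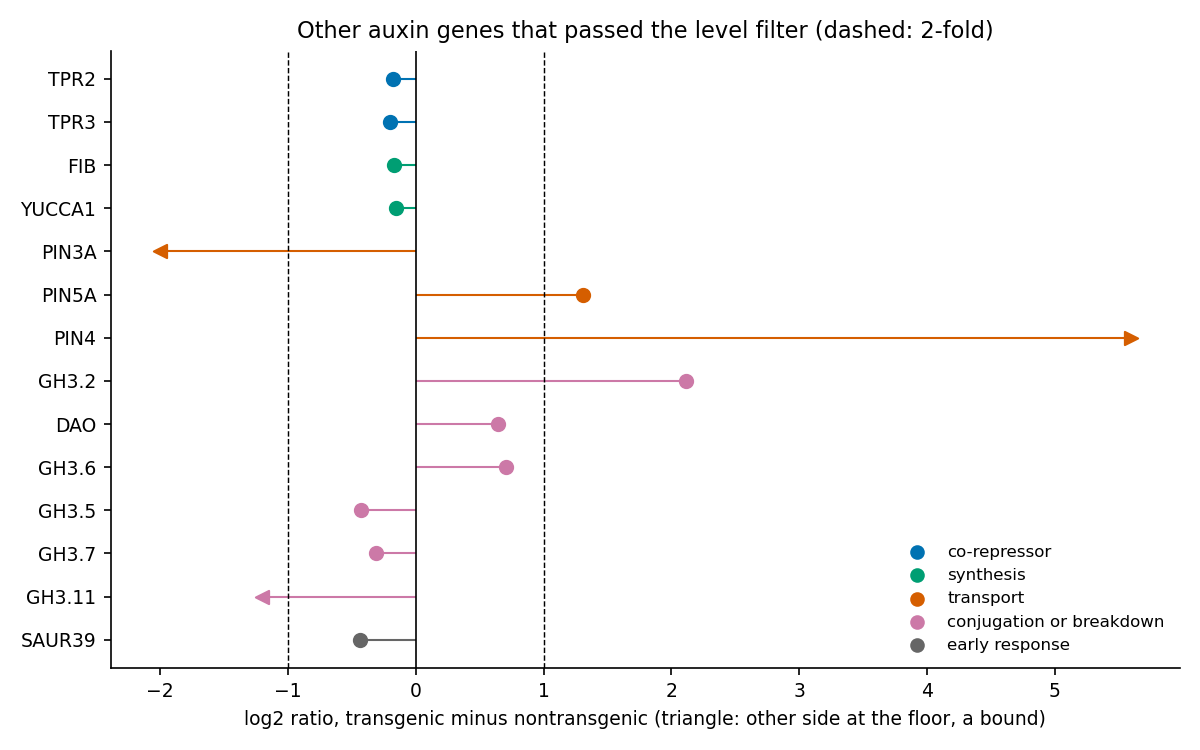
Log2 ratio (transgenic minus nontransgenic) of the 14 other auxin genes that passed the level filter, coloured by role, with dashed lines at 2-fold and triangles for bounds. PIN4, GH3.2 and PIN5A lie to the right of the upper dashed line, and PIN3A and GH3.11 to the left of the lower one.

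The labelled tissue was checked with marker genes. The leaf genes RBCS, LHCP (LOC4333359) and PETE had log2 signals from 15.26 to 15.83 over both arrays, with ratios between 0.43 and 0.49. Of the 7 leaf genes listed, 5 passed the filter, with ratios from -0.13 for PORB to 0.49, and RBCS1 lay below it at 3.54 in transgenic and 2.09 in nontransgenic leaves. Of 10 measured markers of meristems and dividing tissue, 3 passed the filter. OSH1, a gene of the shoot meristem, stood at 3.94 in transgenic and 4.64 in nontransgenic leaves, below the filter. OSH6 and OSH43 were dim and 2.47-fold and 2.14-fold higher, while PCNA was 1.99-fold lower. OSH6 and OSH43 reached the filter on the transgenic array alone, which fixed their direction. In the dimmest of the 4 groups by mean signal, 16.9% of all genes were at least 2-fold higher. Of 3 measured root genes, 2 passed the filter. Lsi1 stood at 9.57 in transgenic and 8.62 in nontransgenic leaves, and IRT1 at 5.68 and 5.99. Lsi2, below the filter, was at 0.20 and 0.72. In bulk leaf RNA, fewer cells of a type and less RNA per cell cannot be told apart, and the part of tissue makeup in the auxin values was not tested.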

How the data were processed

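Leaf RNA of 10 seedlings per group was read on 1-colour oligonucleotide arrays, 1 for OsEATB transgenic and 1 for nontransgenic rice. The deposited values are MAS5 signals, per the submitters' processing notes. From their range the authors deposited them as log2 values. The sources used here give no MAS5 version, and detection calls were not used. Unlogged, both arrays had a trimmed mean of 500.1 (2% cut at each end), so the authors' scaling removed any overall difference in brightness.

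The 187 control probe sets were set apart from the other 57194. Probe sets were tied to genes through the platform's table (22436 to 1 gene, 95 to several, 34663 to none) and named through RefSeq's rice annotation of assembly ASM3414082v1, which served for names and gene order only. Floor, filter and ratio are as described above. A gene was represented by its brightest passing probe set. The threshold was 2-fold. All members are named, and other auxin genes if past 2-fold or as listed. LAX1, LAX2 and an ASP1 that is an aspartic protease were left out of the lists as other proteins. Members, lists and ARF groups were chosen with earlier results of these data known. The ratio and filter steps were tested on simulated data. Changes were placed in bright probe sets only, with less noise than the scatter between probe sets, so changes in dim signals were not tested. Protein and promoter sequences were not used here. The number of arrays limits the precision. Python 3.11.15, pandas 2.3.3 and statsmodels 0.14.6 (lowess) were used.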

Additional observations from a re-analysis of the deposited data

How the results depend on the processing

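The 13 alternatives covered the floor, the filter, the scaling and the probe set. The filter on the mean of both arrays was chosen after seeing the data. The family medians stayed below 0 in all 13, and the difference of medians, Aux/IAA minus ARF, lay between -0.15 and -0.07. Scaled on 27 hybridisation control probe sets, which were brighter by 0.91 (log2) on the transgenic array, the median of all genes was -0.92, the Aux/IAA median -1.26 and the ARF median -1.12, and 16 Aux/IAA and 12 ARF genes were at least 2-fold lower, beside 41.2% of all genes. Every member had a ratio below 0 there, IAA6 and ARF7 included, while the medians relative to all genes stayed at -0.34 and -0.20. With the level filter at the 75th percentile, 1 Aux/IAA gene (IAA4) and 0 ARF genes were 2-fold lower, since 15 and 14 genes remained, beside 2.06% of all genes. IAA4 reached the 75th percentile on the nontransgenic array alone, which fixed its direction at that setting. With the filter on the mean, 2 Aux/IAA genes were 2-fold lower. Without a floor and with the pseudocount, 2 ARF genes were 2-fold lower, ARF13 being the added gene. IAA4 and IAA12 stayed past 2-fold in each alternative that measured them, IAA4 between -4.14 and -2.87 and IAA12 between -7.67 and -2.38. Of 491 values of single members under the alternatives, 448 moved by less than the scatter between probe sets. Under the scaling on controls every member moved by more. Changes of the filter left the ratios as they were, and the scatter is wide for dim genes, so the count is a weak check. The 448 include ARF13 with the floor at the median, where its sign changed. Dim signals limit IAA12, IAA31 and ARF13, given as bounds. No paired analysis was possible because each group has 1 array.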
